A study of Mus musculus with 12 samples.

Results

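The genes described here are the sugar transporters and fructose-handling genes Slc2a2, Slc5a1, Slc2a5, Khk, Fbp1 and Slc37a4, 6 of the 55335 gene entries counted by bulk RNA sequencing in organoids of the mouse small intestine. They were chosen by symbol, and all 6 passed the filter on low counts in both comparisons. The 12 libraries fall into 4 groups of 3, RANKL and ENR control in one count table, RANKL+CSRM617 and RANKL II in another. All cultures are epithelial organoids of one line, from a single female Lgr5GFPDTR/+ mouse, in which 1 Lgr5 allele holds GFP with the diphtheria toxin receptor. RANKL cultures were first kept for 3 days with 3 µM CHIR99021, which inhibits GSK3, and 1.5 mM valproic acid, which inhibits histone deacetylases, then ENR alone for 1 day, then 100 ng/mL RANKL for 6 days. RANKL is the cytokine that induces M cells, which sample antigens from the gut lumen. ENR control organoids were kept for 6 days in ENR medium, named for EGF, Noggin and R-spondin1. Their sample names begin with CVENR, and no label says whether they had the CHIR99021 and valproic acid step, so that step and RANKL cannot be told apart. RANKL+CSRM617 cultures had the RANKL protocol with 40 µM CSRM617, a small molecule that inhibits ONECUT2, a transcription factor, and RANKL II cultures are the RANKL set grown for comparison with it. Replicates are separate differentiation experiments of the same line, so p-values do not cover the spread between mice. They cover only the spread seen between replicates, which was close to counting error in RANKL II.

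Absorptive enterocytes take up dietary sugars in steps that these genes divide among them. Slc5a1 (SGLT1) carries glucose and galactose across the apical membrane with sodium, Slc2a5 (GLUT5) carries fructose across the same membrane, and Slc2a2 (GLUT2) is the facilitative carrier through which sugars leave toward the blood. Khk (ketohexokinase) phosphorylates fructose, and Tkfc completes the fructose-specific steps farther down. Fbp1 (fructose bisphosphatase) is an enzyme of gluconeogenesis, and Slc37a4 moves glucose 6-phosphate into the endoplasmic reticulum, where the glucose 6-phosphatase G6pc releases glucose. Fructose fed to mice raises intestinal Slc2a5 and several fructose enzymes, partly through the sugar-responsive transcription factor ChREBP, encoded by Mlxipl.

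In GRCm38, Slc2a2 lies on the plus strand at chr3:28697903-28731359. Slc5a1 and Khk are plus-strand genes on the same chromosome, at chr5:33104219-33162870 and chr5:30921431-30931248. Slc2a5 lies at chr4:150119283-150144169 and Slc37a4 at chr9:44396852-44402968, both on the plus strand, and Fbp1 at chr13:62864753-62888282 on the minus strand. All 6 are protein-coding, and none shares exon bases with another annotated gene. The alternative exons that give Khk its A and C isoforms were counted as 1 gene.

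The promoters shown are those of the 3 genes that passed the main test in both comparisons and held a searched motif. They allow the sequence before the start to be read beside the measured changes, though Slc2a2 has no settled direction with CSRM617. The sequences are RefSeq's, on GRCm38.p6 and the plus strand, and capitals mark motif matches. For Slc2a2 (chr3:28697653-28697902) and Slc5a1 (chr5:33103969-33104218) the 250 bases before the annotated start are given, and for Khk 30 bases around its match (chr5:30921482-30921511). RefSeq starts Khk at chr5:30921559, downstream of the GENCODE start given above, so this stretch lies before the RefSeq start and inside the GENCODE gene.
Slc2a2: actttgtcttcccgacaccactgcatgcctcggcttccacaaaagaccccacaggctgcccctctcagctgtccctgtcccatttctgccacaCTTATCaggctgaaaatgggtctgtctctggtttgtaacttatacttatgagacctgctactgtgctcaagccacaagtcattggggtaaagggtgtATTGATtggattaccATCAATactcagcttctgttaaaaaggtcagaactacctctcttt
Slc5a1: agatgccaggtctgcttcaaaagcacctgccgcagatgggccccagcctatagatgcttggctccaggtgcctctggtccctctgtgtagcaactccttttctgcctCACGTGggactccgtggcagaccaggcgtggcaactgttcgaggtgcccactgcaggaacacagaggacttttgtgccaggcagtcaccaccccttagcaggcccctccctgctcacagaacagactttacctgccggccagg
Khk: ccccgtCACGTGacaccgttaatctggcgc
The Slc2a2 window held ATTGAT, a core recognised by ONECUT factors, at 60 bases before the start and again on the opposite strand at 45 bases, and GATAAG, which GATA factors recognise, on the opposite strand at 157 bases. The Slc5a1 window held CACGTG, the E-box core, at 143 bases. The Khk stretch held CACGTG at 71 bases before the RefSeq start. Both strands were searched, and no matches overlapped. Among 32851 mouse promoter windows of the same length, ATTGAT occurred in 6.72%, GATAAG in 6.55% and CACGTG in 6.02%, and 0.609% held ATTGAT 2 times or more, a count made after the pair in Slc2a2 was seen. The other motifs searched, ATCGAT (0.728% of windows) and CAAAGTCCA (0.384%), had no match in the 8 windows of the 6 genes, and the windows of Slc2a5, Fbp1 and Slc37a4 held none of the motifs.

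Totals were 6351155 to 7719157 counts per library in RANKL, 5795541 to 7577492 in ENR control, 10225102 to 14041947 in RANKL+CSRM617 and 8669153 to 11241811 in RANKL II. The loci Gm26917 and Gm42418, which collect ribosomal RNA reads, took 9.71% to 10.7% of counts in RANKL against 21.9% to 35.5% in ENR control, and 15.3% to 15.8% in RANKL+CSRM617 against 6.44% to 6.71% in RANKL II. Mitochondrial genes took 2.52% to 2.89% in RANKL against 5.43% to 7.96% in ENR control, and 8.61% to 11.0% in RANKL+CSRM617 against 6.04% to 6.11% in RANKL II. The part of these shares in the results was not tested. A chi-square test of raw counts between replicates, where counting error alone gives about 1 per degree of freedom, gave 2.25 to 4.21 in RANKL, 5.97 to 36.7 in ENR control, 1.18 to 5.12 in RANKL+CSRM617 and 1.10 to 1.43 in RANKL II. On this raw-count measure ENR control replicate 2 stood farthest from its group. It held 21.9% of counts at Gm26917 and Gm42418, against 31.0% and 35.5% in replicates 1 and 3. The part of that share in its distance was not tested. The RANKL II libraries differed by little more than counting error, so p-values with CSRM617 rest on a small spread. The epithelial markers Epcam, Cdh1, Vil1 and Krt20 summed to 1679 to 2716 CPM (counts scaled to library size after TMM normalization) over all libraries. By contrast, 4 immune markers summed to at most 3.12 CPM. Of 3 hepatocyte markers, Alb was at 0 in every library, but the list of Alb, Ttr and Cyp3a11 summed to 26.3 to 88.4 CPM. Changes in both comparisons followed the GC content of transcripts across all genes, so values corrected for GC content, from an edgeR fit with offsets for each library's GC trend, are given where they end a call, turn a sign or move a value by over 1.5 times. In bulk RNA, fewer cells of a type and less RNA per cell cannot be told apart.

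Per kilobase of exon, Slc5a1 and Khk held the highest levels of the 6 genes in every group. In RANKL organoids Slc5a1 averaged 24.9 CPM per kb and Khk 18.2, followed by Fbp1 at 9.40, Slc2a2 at 6.97, Slc37a4 at 6.78 and Slc2a5 at 2.84. In ENR control Khk averaged 35.7 CPM per kb and Slc5a1 34.4, followed by Slc37a4 at 11.6, Fbp1 at 7.88, Slc2a5 at 3.12 and Slc2a2 at 1.22. Slc2a2 was thus the lowest of the 6 in ENR control and had a mean next to that of Slc37a4 with RANKL. In RANKL+CSRM617 the order was Slc5a1 at 72.2 CPM per kb, Khk at 64.9, Fbp1 at 19.0, Slc37a4 at 13.2, Slc2a2 at 11.1 and Slc2a5 at 9.33. In RANKL II it was Slc5a1 at 49.4, Khk at 39.1, Fbp1 at 18.7, Slc2a2 at 13.8, Slc37a4 at 13.3 and Slc2a5 at 3.96. Neighbours whose libraries overlapped were Slc2a2 and Slc37a4 in RANKL and in RANKL II, and Khk and Slc5a1 in ENR control. The other neighbours did not overlap.

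**Figure D1:**
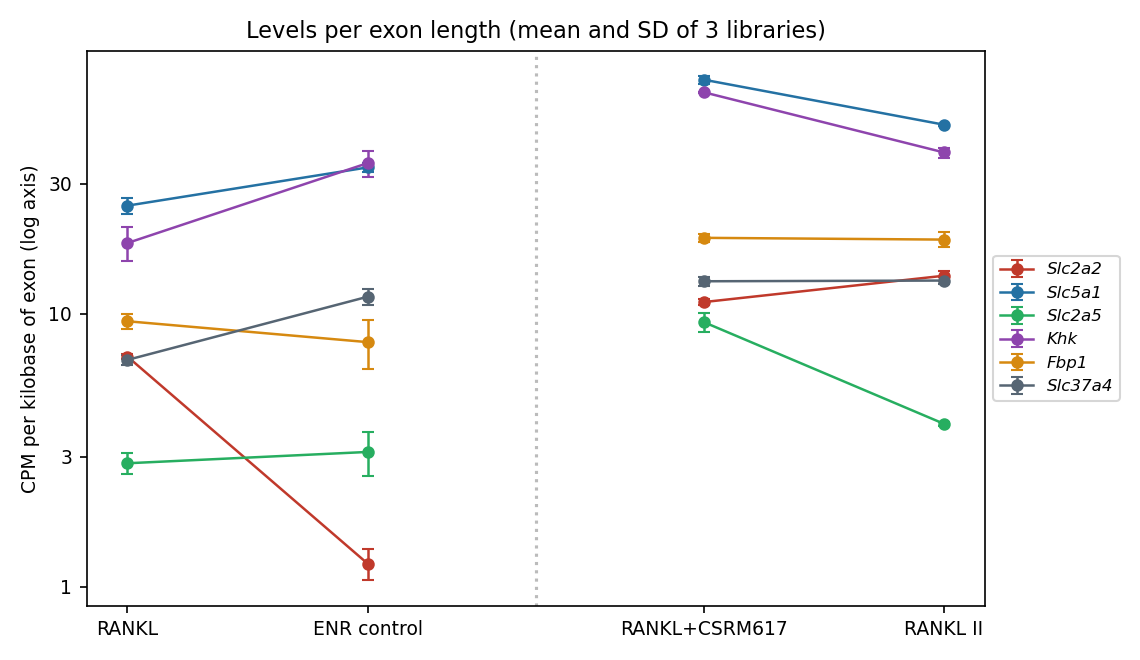
Mean level of each gene per kilobase of exon (CPM per kb, log axis), with SD over 3 libraries, in the 4 groups. Slc5a1 and Khk are the highest in each group, and Slc2a2 is the lowest in ENR control at 1.22 CPM per kb.

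The first comparison asked what RANKL-driven differentiation did to the sugar genes. Slc2a2 rose 5.74-fold with RANKL, whereas Slc5a1, Khk and Slc37a4 fell, and Slc2a5 and Fbp1 did not pass the test. Thus 1 of the 6 rose and 3 fell, at an edgeR adjusted p under 0.05, and these 4 were the members whose groups did not overlap; those of 63.3% of all genes did not overlap either. Of all 13570 genes tested, 56.7% were called, 28.7% higher and 28.0% lower: the share of members called is near the background. The median log2 fold change of the members was -0.29, and that of all genes was 0.00. With correction for GC content these medians were -0.18 and 0.02.

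Slc2a2 stood at 39.3, 40.4 and 40.8 CPM in the RANKL libraries, against 8.06, 6.53 and 6.40 CPM in ENR control. Every RANKL library was above every ENR control library, and the raw counts behind these levels were 301 to 357 with RANKL and 28 to 49 in ENR control. Slc2a2 averaged 40.1 ± 0.762 CPM in RANKL and 7.00 ± 0.926 CPM in ENR control (SD, n = 3 each), a log2 fold change of 2.52 (SE 0.132, edgeR adjusted p = 2.66e-10). Of the 13570 genes, 457 had a larger rise.

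Slc5a1, the apical glucose carrier, stood at 110.1, 96.2 and 101 CPM in RANKL, against 146, 141 and 136 CPM in ENR control. All RANKL libraries were below all ENR control libraries. Its log2 fold change was -0.47 (SE 0.0827, edgeR adjusted p = 0.000183), from means of 102 ± 7.12 CPM in RANKL and 141 ± 4.85 CPM in ENR control (SD, n = 3 each). The apical carrier Slc5a1 and the basolateral carrier Slc2a2 thus changed in opposite directions.

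Slc2a5, the apical fructose carrier, stood at 10.1, 10.2 and 8.67 CPM in RANKL, against 9.98, 9.06 and 12.8 CPM in ENR control. The groups overlapped, and the log2 difference was -0.11 with a 95% interval of -0.44 to 0.23 (edgeR adjusted p = 0.621). Differences inside that interval remain compatible with these libraries.

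Khk, the fructose kinase, stood at 37.7, 31.6 and 28.7 CPM in RANKL, against 72.2, 58.8 and 61.5 CPM in ENR control. The groups did not overlap, and each RANKL library was below the lowest ENR control library. Its mean was 32.7 ± 4.59 CPM in RANKL and 64.1 ± 7.10 CPM in ENR control (SD, n = 3 each), a log2 fold change of -0.96 (SE 0.116, edgeR adjusted p = 3.83e-06).

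Slc37a4, the glucose 6-phosphate carrier of the endoplasmic reticulum, stood at 19.98, 18.5 and 19.6 CPM in RANKL, against 30.5, 33.9 and 34.7 CPM in ENR control. Every RANKL library was the lower. The log2 fold change was -0.77 (SE 0.110, edgeR adjusted p = 2.3e-05).

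Fbp1 stood at 14.9, 16.3 and 16.8 CPM in RANKL, against 12.3, 16.5 and 11.4 CPM in ENR control. One ENR control library, replicate 2, lay inside the RANKL range, and the other two lay below it. The log2 difference was 0.22 with a 95% interval of -0.08 to 0.52 (edgeR adjusted p = 0.233). Without ENR control replicate 2 it was 0.42 (edgeR adjusted p = 0.0261), so in the main fit the call of Fbp1 turned on this library. With all libraries kept, Fbp1 passed after correction for GC content, at 0.37 (edgeR adjusted p = 0.0475). Over all alternative settings for Fbp1 the adjusted p ran from 0.0261 to 0.551, by edgeR in all but the DESeq2 and limma settings.

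**Figure D2:**
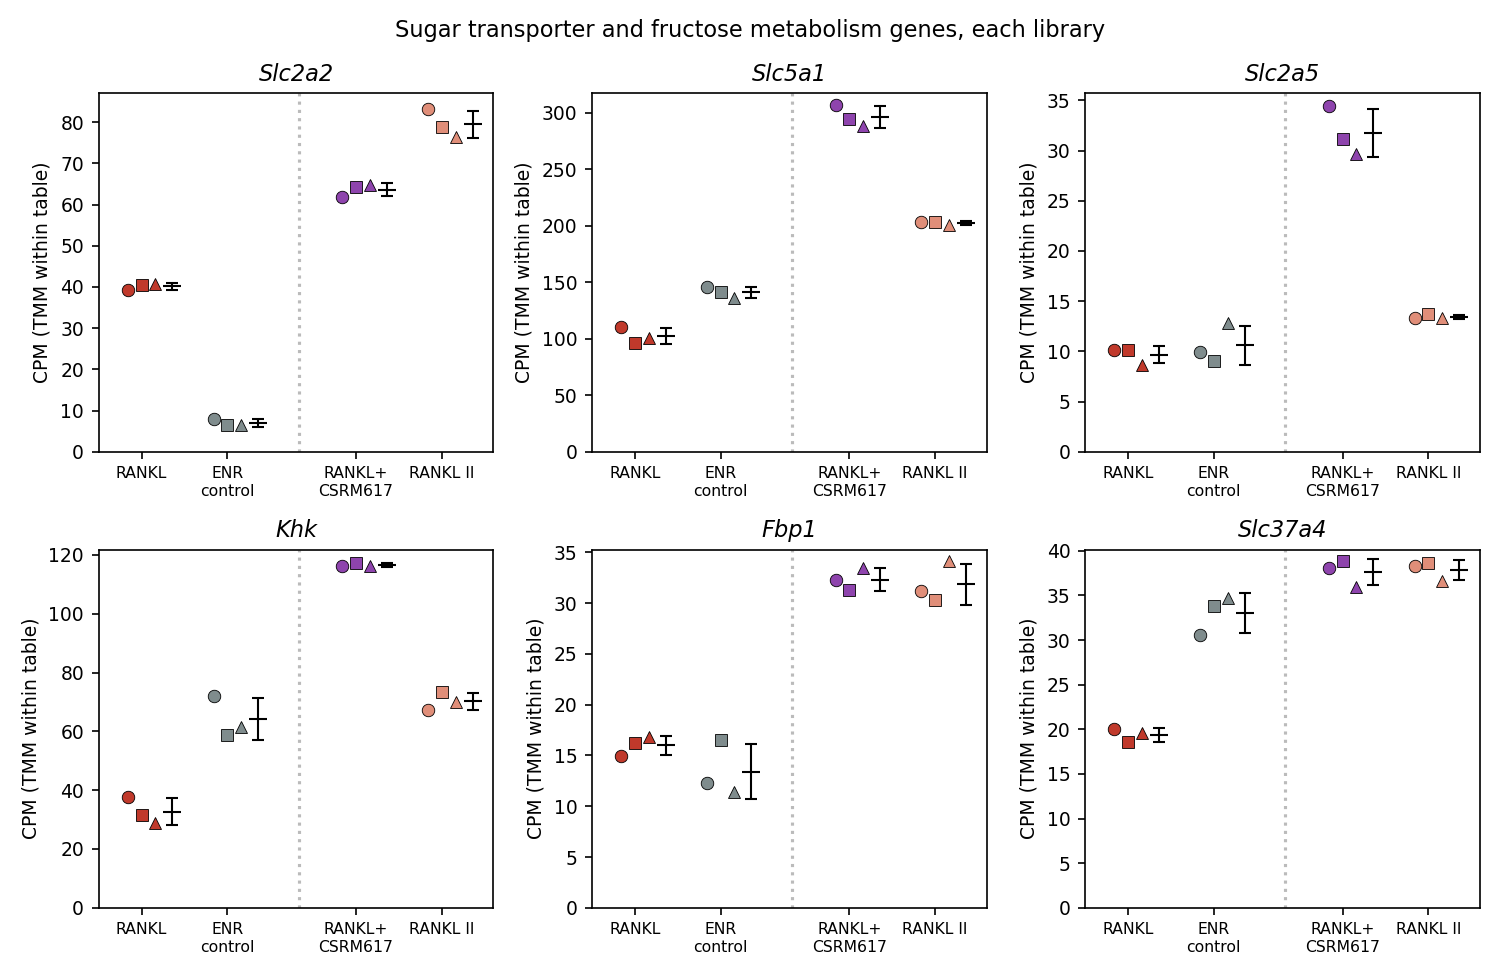
Level of each gene (CPM) in every library of the 4 groups; circles, squares and triangles are replicates 1, 2 and 3, and bars give mean ± SD. Slc2a2 lies at 39.3 to 40.8 CPM in RANKL and 6.40 to 8.06 CPM in ENR control, and Slc2a5 at 29.7 to 34.4 CPM in RANKL+CSRM617 and 13.3 to 13.7 CPM in RANKL II.

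Markers of the differentiated cells moved in the same libraries. All 5 M cell markers rose with RANKL, and their sum was 355 to 401 CPM in RANKL against 9.22 to 13.0 CPM in ENR control. Of 6 absorptive enterocyte markers, Alpi, Apoa1 and Apoa4 rose and Fabp1, Fabp2 and Anpep fell, with a sum of 1714 to 2353 CPM in RANKL against 591 to 912 CPM in ENR control. The part of these cell types in the levels of the sugar genes was not tested.

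The enzymes around Khk did not all move with it. Of 10 such enzymes tested, 5 rose, 3 fell and 2 did not pass the test, with a median log2 fold change of 0.42. For this and the lists that follow, 28.7% of all genes tested were called higher and 28.0% lower. Tkfc, a kinase later in the pathway than Khk, had a log2 fold change of 0.23 (SE 0.0856, edgeR adjusted p = 0.0300), which did not pass without RANKL replicate 1, RANKL replicate 2 or ENR control replicate 1, at 0.15, 0.24 and 0.20 on the log2 scale, nor by limma on the deposited log2 values, at 0.21. After correction for GC content it was 0.45 and called. Hk1 and Hk2, hexokinases that phosphorylate glucose, rose by 1.78 and 0.86 on the log2 scale. Sord, which makes fructose from sorbitol, had a log2 fold change of -0.68, and Hkdc1, a hexokinase family member, of -0.98.

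Among the other sugar transporters, 6 of 17 listed genes passed the filter, of which 3 rose and 2 fell. The median log2 fold change was 0.06, or 0.19 with correction for GC content. Slc2a1 (GLUT1) averaged 60.4 ± 2.59 CPM in RANKL and 25.6 ± 0.589 CPM in ENR control (SD, n = 3 each), a rise of 1.24 on the log2 scale. Slc2a6 had 885 counts over the RANKL libraries and 1 count over those of ENR control, a depth-scaled ratio of 602 with a 95% counting interval of 108 to 23780. Slc5a9, a sodium-coupled carrier of mannose and related sugars, rose by 0.46. Slc2a8 had a log2 fold change of -0.85, or -0.49 after correction for GC content. Slc50a1 had -0.37, or -0.19 without passing after the correction, and did not pass under 7 of 15 alternatives. The galactose enzymes gave 1 rise (Galm, 0.34), 2 falls (Galk1, -0.55, and Galt, -0.37) and 2 that did not pass, with a median of -0.25. After correction for GC content Galk1 was at -0.17 and Galt at -0.14, neither of them passing. Galt was not called under 9 of 15 alternatives. With the correction 2 of the 5 were higher and 1 lower, with a median of -0.14.

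Of 9 tested gluconeogenesis and glucose 6-phosphate genes, 2 rose, 2 fell and 5 did not pass (median log2 fold change 0.17), and with correction for GC content 6 were higher and 2 lower (median 0.29). G6pc averaged 36.5 ± 0.763 CPM in RANKL and 13.7 ± 1.59 CPM in ENR control (SD, n = 3 each), a rise of 1.42 on the log2 scale, in the libraries in which its partner Slc37a4 was lower. Pgm1, which interconverts glucose phosphates, rose by 0.70. Pck2 and G6pc3 had log2 fold changes of -1.59 and -0.70, G6pc3 being at -0.42 after the correction. Pck1, the cytosolic carboxykinase, was below the filter, with 2 counts over the RANKL libraries and 40 over those of ENR control, and the ratio of ENR control to RANKL was 29.4 with a 95% counting interval of 7.63 to 251.

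Of 14 sugar-sensing and transcription factor genes tested, 3 rose, 6 fell and 5 did not pass (median log2 fold change -0.34), and with correction for GC content 5 were higher and 5 lower (median -0.05). Mlxipl (ChREBP) averaged 244 ± 11.6 CPM in RANKL and 583 ± 125 CPM in ENR control (SD, n = 3 each), a log2 fold change of -1.26. Its relative Mlxip and the sugar-induced arrestins Txnip and Arrdc4 had log2 fold changes of -1.13, -0.79 and -0.67. Hnf4g, a nuclear receptor of the gut epithelium, rose by 0.67, or 0.41 after the correction, and its relative Hnf4a had 0.02 without passing the test, or 0.20, called, after correction for GC content. Of 7 disaccharidase and sodium pump genes, 1 rose, 3 fell and 3 did not pass (median -0.28). Sucrase-isomaltase (Sis) rose by 0.85, or 0.52 after the correction, and the pump subunit Atp1b1 had -0.38. Lactase (Lct) had -1.51, a value that ran from -1.74 to -0.73 over 14 alternatives.

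**Figure D3:**
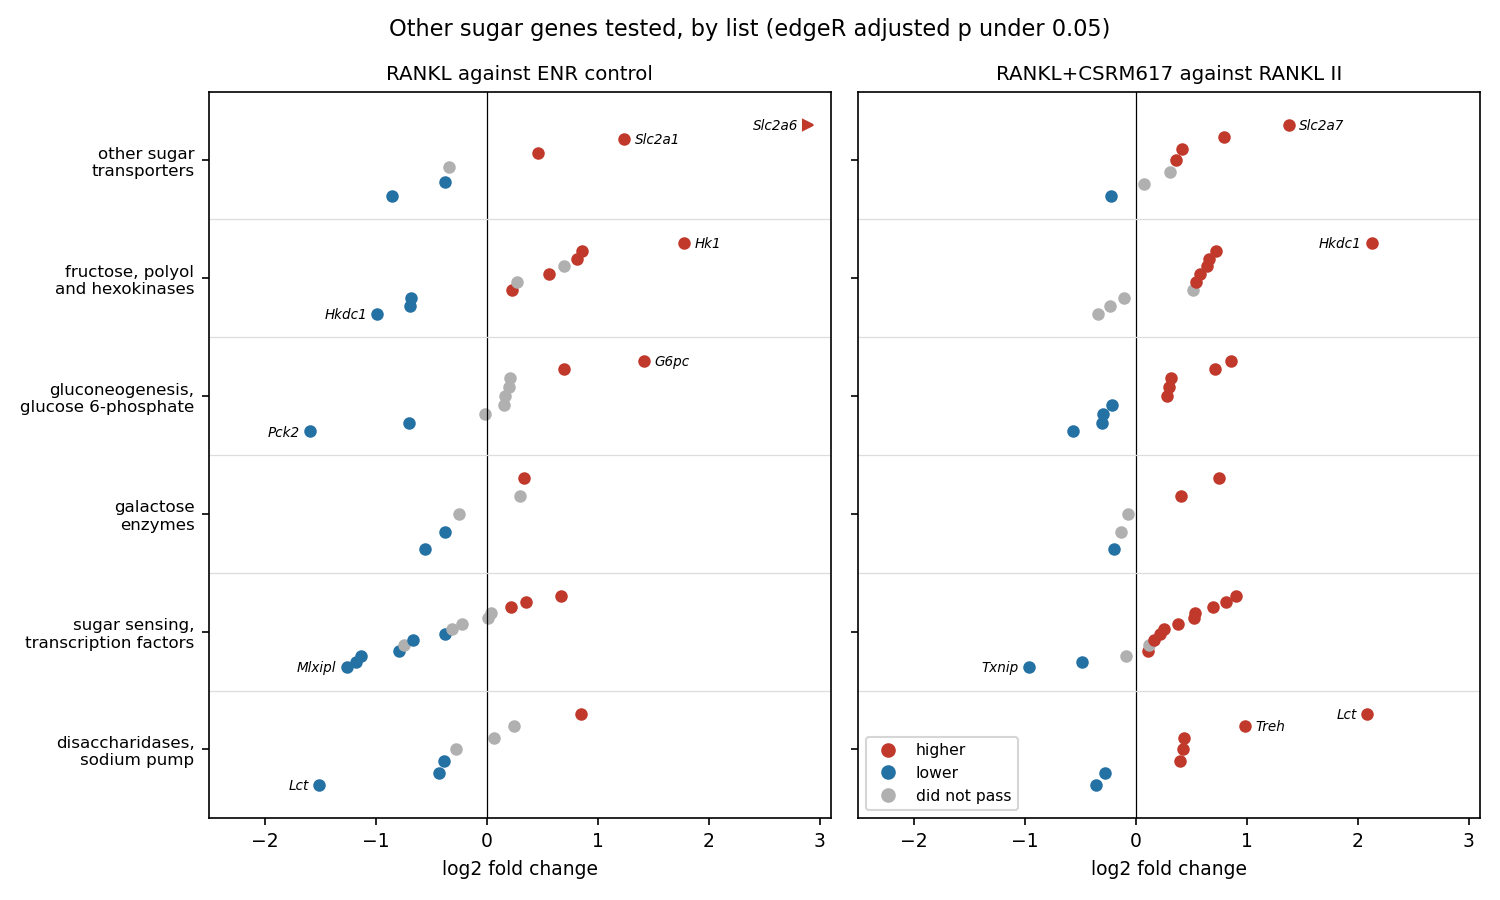
Log2 fold change of each other sugar gene tested, by list, in RANKL against ENR control (left) and RANKL+CSRM617 against RANKL II (right); red passed as higher, blue as lower, grey did not pass, and the arrowhead marks Slc2a6, which lies beyond the axis. The fructose and hexokinase list has 5 rises and 3 falls on the left, and 6 rises on the right.

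The second comparison asked what CSRM617 did to the same genes in RANKL-treated organoids. Slc2a5 rose 2.34-fold with the compound, and Khk and Slc5a1 rose too, by 0.73 and 0.55 on the log2 scale. Slc2a2 had a log2 fold change of -0.32 that reversed to 0.18 after correction for GC content, and Fbp1 and Slc37a4 did not pass the test. Thus 3 of the 6 were higher and 1 was lower at an edgeR adjusted p under 0.05, where 71.4% of all 14167 genes tested were called, 35.2% higher and 36.2% lower. The groups of the 4 called members did not overlap, and neither did those of 73.1% of all genes. The share called among members is again near the background, and their median log2 fold change was 0.28, against -0.02 for all genes.

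Slc2a5 stood at 34.4, 31.1 and 29.7 CPM in the RANKL+CSRM617 libraries, against 13.4, 13.7 and 13.3 CPM in RANKL II. The groups were far apart relative to their spread, with means of 31.7 ± 2.42 CPM in RANKL+CSRM617 and 13.5 ± 0.218 CPM in RANKL II (SD, n = 3 each). The log2 fold change was 1.23 (SE 0.0846, edgeR adjusted p = 4.02e-17), and 382 of the 14167 genes had a larger rise. It had the largest rise of the 6 members, by log2 fold change, in this comparison.

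Khk stood at 116, 117 and 116 CPM in RANKL+CSRM617, against 67.4, 73.3 and 69.9 CPM in RANKL II. No library of one group reached the range of the other. The means were 117 ± 0.656 CPM in RANKL+CSRM617 and 70.2 ± 2.96 CPM in RANKL II (SD, n = 3 each), with a log2 fold change of 0.73 (SE 0.0438, edgeR adjusted p = 3.57e-19), which was 0.23 (SE 0.0407) after correction for GC content.

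Slc5a1 stood at 306, 294 and 288 CPM in RANKL+CSRM617, against 204, 204 and 200.4 CPM in RANKL II. Its groups did not overlap, and the rise was 0.55 on the log2 scale (SE 0.0320, edgeR adjusted p = 1.74e-19). Correction for GC content left it at 0.57.

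Slc2a2 stood at 61.8, 64.3 and 64.7 CPM in RANKL+CSRM617, against 83.1, 78.7 and 76.5 CPM in RANKL II. All libraries with the compound were below all those without it on this scale. The log2 fold change was -0.32 (SE 0.0494, edgeR adjusted p = 3.00e-07), and after correction for GC content it was 0.18 (SE 0.0468), the opposite sign, also past the threshold, so no direction is given for Slc2a2 in this comparison.

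Fbp1 stood at 32.2, 31.3 and 33.5 CPM in RANKL+CSRM617, against 31.2, 30.3 and 34.1 CPM in RANKL II. Slc37a4 stood at 38.1, 38.9 and 36.0 CPM in RANKL+CSRM617, against 38.3, 38.6 and 36.6 CPM in RANKL II. Both genes overlapped between the groups, with log2 differences of 0.01 for Fbp1 (95% interval -0.12 to 0.15, edgeR adjusted p = 0.858) and -0.01 for Slc37a4 (-0.13 to 0.12, edgeR adjusted p = 0.928). After correction for GC content both passed the threshold as lower, at -0.18 for Fbp1 and -0.36 for Slc37a4.

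**Figure D4:**
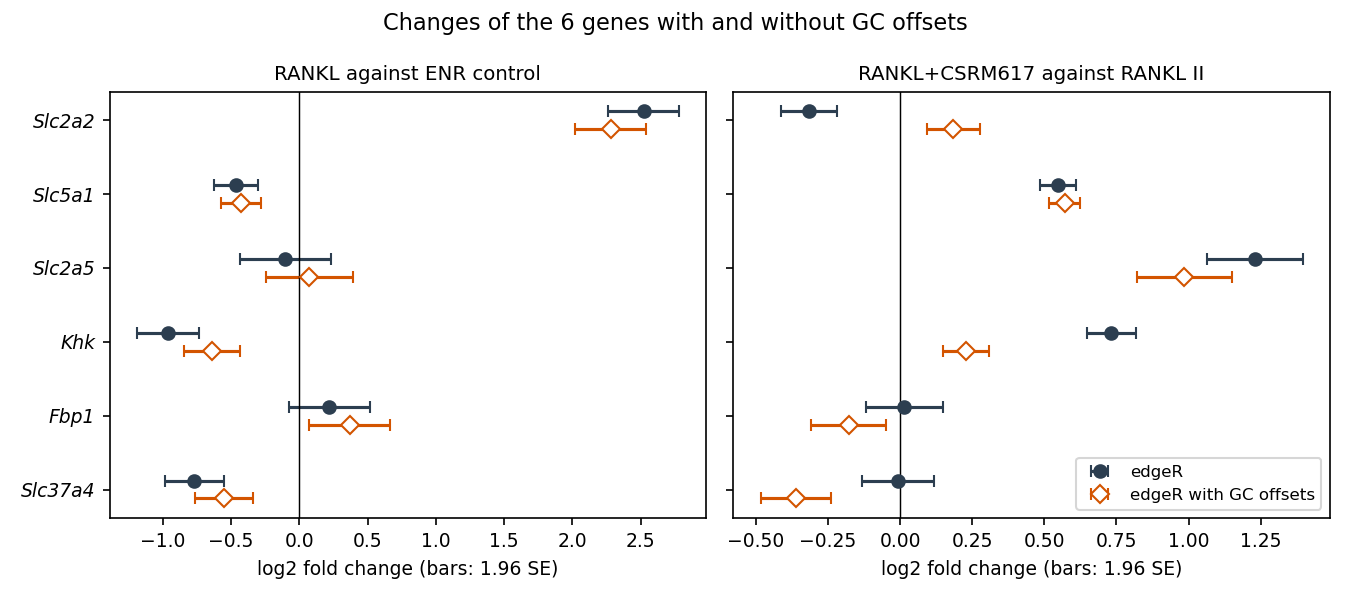
Log2 fold change of the 6 genes with 95% intervals, before (filled) and after (open) correction for GC content, in RANKL against ENR control (left) and RANKL+CSRM617 against RANKL II (right). Slc2a2 on the right crosses 0 between the fits, at -0.32 and 0.18, while Slc5a1 stays at 0.55 and 0.57.

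Absorptive enterocyte markers moved in the same direction as Slc2a5, Khk and Slc5a1, though not as Fbp1 and Slc37a4. All 6 of these markers rose with CSRM617, and their sum was 7157 to 7717 CPM in RANKL+CSRM617 against 2479 to 2539 CPM in RANKL II. Among other lineages, 3 of 3 tuft, 2 of 2 tested enteroendocrine and 3 of 4 Paneth markers rose too. Goblet markers gave 2 rises and 2 falls, and stem cell markers 2 rises and 1 fall. Of the 5 M cell markers 3 rose and 2 fell, or 1 higher and 2 lower after correction for GC content, with a sum of 375 to 387 CPM in RANKL+CSRM617 against 361 to 377 CPM in RANKL II. The part of the cell types in the changes of the sugar genes was not tested. Onecut2, the gene of the compound's target, averaged 397 ± 19.4 CPM in RANKL+CSRM617 and 546 ± 4.83 CPM in RANKL II (SD, n = 3 each), a log2 fold change of -0.46 that was -0.03 after correction for GC content.

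Tkfc, which acts after Khk, rose as Khk did. Of the 10 fructose, polyol and hexose enzymes, 6 rose and 4 did not pass (median log2 fold change 0.56). With correction for GC content 6 were higher and 3 lower (median 0.30). For this and the lists that follow, 35.2% of all genes tested were called higher and 36.2% lower in the main fit. Tkfc averaged 1048 ± 30.2 CPM in RANKL+CSRM617 and 634 ± 5.63 CPM in RANKL II (SD, n = 3 each), a rise of 0.72 on the log2 scale, or 0.39 after the correction. Hkdc1 had the largest rise of this list, by 2.13, at 96.4 ± 1.80 CPM in RANKL+CSRM617 and 21.9 ± 0.957 CPM in RANKL II. Hk1, Hk2 and Mpi, the mannose 6-phosphate isomerase, rose by 0.64, 0.55 and 0.58, and Hk1 and Hk2 were at 0.24 and 0.35 after correction for GC content.

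Among the other sugar transporters, 7 of 17 passed the filter, of which 4 rose and 1 fell. The median log2 fold change was 0.36, or 0.13 with correction for GC content. Slc2a7, a relative of Slc2a5, averaged 1.65 ± 0.132 CPM in RANKL+CSRM617 and 0.635 ± 0.0811 CPM in RANKL II, a rise of 1.38 on the log2 scale. Slc2a6, Slc2a1 and Slc2a9 rose by 0.80, 0.41 and 0.36, values that were 0.33, 0.13 and 0.17 after correction for GC content, the last no longer past the threshold. Slc50a1 had -0.23, or -0.48 after the correction, and did not pass under 3 of 15 alternatives. Of the 5 galactose enzymes 2 rose, 1 fell and 2 did not pass (median log2 fold change -0.07), and with the correction 2 were higher and 2 lower (median 0.03). Galt had 0.41, or 0.03 without passing after correction for GC content, and Galk2 had -0.20 and reversed to 0.27 after correction for GC content.

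Of the 9 gluconeogenesis and glucose 6-phosphate genes tested, 5 rose and 4 fell (median log2 fold change 0.29, or 0.08 with correction for GC content). Pyruvate carboxylase (Pcx) rose by 0.86, or 0.41 after correction for GC content, and G6pc by 0.71, with G6pc at 30.8 ± 1.44 CPM in RANKL+CSRM617 and 18.6 ± 1.55 CPM in RANKL II. Fbp2, the isozyme of Fbp1, Slc37a1, a relative of Slc37a4, and Pgm1 rose by 0.30, 0.32 and 0.29, and were at 0.14, 0.084 and 0.20 after the correction, all past the threshold. Pck1 stayed below the filter, at 1.22 ± 0.297 CPM in RANKL+CSRM617 and 0.164 ± 0.126 CPM in RANKL II.

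Of the 14 sensing and transcription factor genes, 10 rose, 2 fell and 2 did not pass (median log2 fold change 0.24). With correction for GC content 5 rose and 5 fell (median 0.006). Mlxipl averaged 677 ± 26.3 CPM in RANKL+CSRM617 and 384 ± 7.55 CPM in RANKL II, a rise of 0.82 on the log2 scale that was 0.41 after correction for GC content, and Mlxip rose by 0.38, or 0.14 after it. Txnip, a target of ChREBP and its relatives, had a log2 fold change of -0.96, at 662 ± 9.83 CPM in RANKL+CSRM617 and 1287 ± 14.9 CPM in RANKL II, and Arrdc4 had -0.48. Hnf4a rose by 0.52, or 0.26 after the correction, whereas Cdx2, at 0.25, reversed to -0.19 after correction for GC content. Of the 7 disaccharidase and sodium pump genes 5 rose and 2 fell (median 0.43). Lct rose by 2.08, at 2.30 ± 0.0561 CPM in RANKL+CSRM617 and 0.515 ± 0.272 CPM in RANKL II, and Treh, Mgam and Sis rose by 0.99, 0.43 and 0.40, Sis being at 1.00 after the correction, while Atp1b1 had -0.28.

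The members span much of the range of transcript GC content, at 41.7% for Slc2a2, 47.8% for Slc5a1, 51.9% for Fbp1, 53.2% for Slc2a5, 55.5% for Slc37a4 and 59.4% for Khk. In RANKL against ENR control the median log2 fold change was 0.52 in genes of at most 40% GC and -0.41 in genes over 60%. In RANKL+CSRM617 against RANKL II it was -0.90 at the low end and 0.59 at the high end. The bins that hold Slc2a2 (40% to 45%) and Khk (55% to 60%) had medians of -0.44 and 0.44 with CSRM617. Whether this trend belongs to the libraries or to the cells was not tested. With the trend fitted out per library, the RANKL fold changes were 2.28 for Slc2a2, -0.43 for Slc5a1, -0.64 for Khk and -0.55 for Slc37a4, all of the same sign as before and past the threshold. Fbp1, at 0.37, also passed in that fit, and 5 of the 6 members were then called, 2 higher and 3 lower, where 53.4% of all genes were, 28.5% as higher and 24.9% as lower. With CSRM617 all 6 were called in the corrected fit, 4 higher and 2 lower, where 63.6% of all genes were called, 31.4% as higher and 32.2% as lower.

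**Figure D5:**
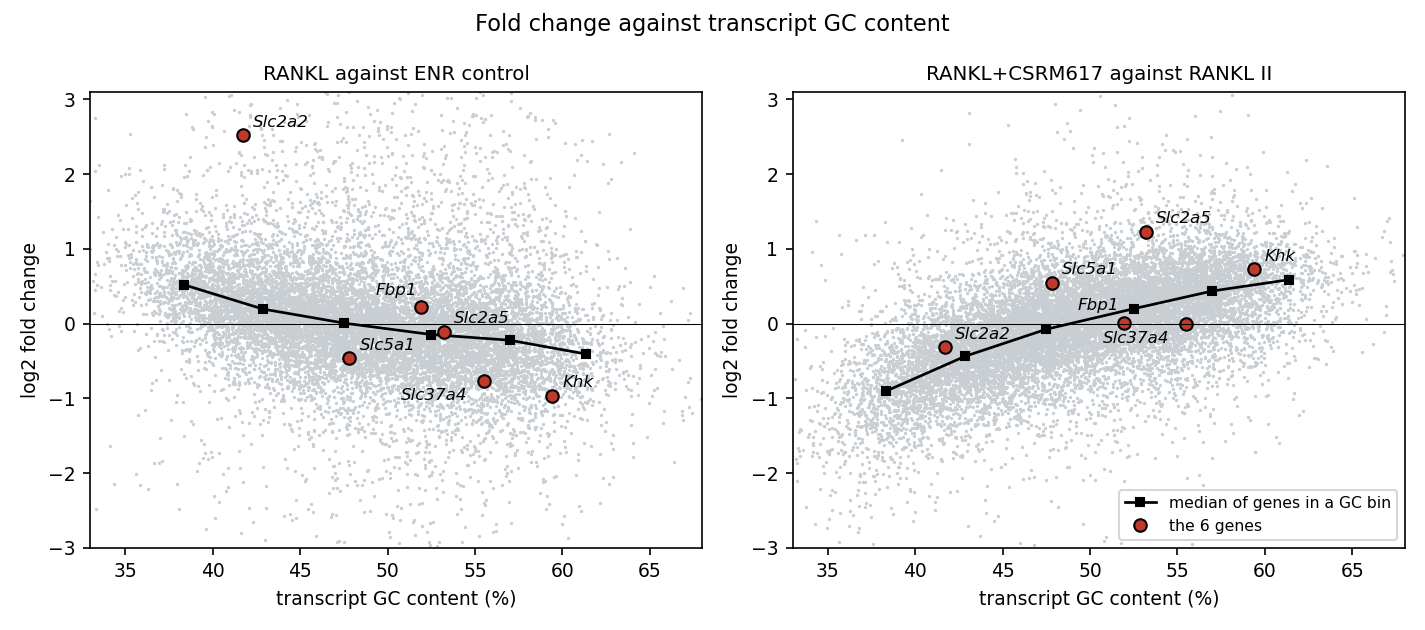
Log2 fold change of every gene tested (grey, both axes limited) against GC content of its longest transcript (percent), with the median per bin (line) and the 6 genes marked, in RANKL against ENR control (left) and RANKL+CSRM617 against RANKL II (right). The bin medians run from 0.52 down to -0.41 on the left and from -0.90 up to 0.59 on the right.

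The comparisons share no library, so their values for each member can be set side by side. Khk and Slc5a1 had log2 fold changes of -0.96 and -0.47 with RANKL, and of 0.73 and 0.55 with CSRM617. The GC trend over all genes ran in opposite directions, with medians of -0.22 and 0.44 in the bin that holds Khk. After correction for GC content Khk was at -0.64 with RANKL and 0.23 with CSRM617. Slc2a5 had -0.11, without passing the test, with RANKL, and 1.23 with CSRM617. Slc37a4 had -0.77 with RANKL and -0.01, without passing, with CSRM617, the latter being -0.36, called, after the correction. Slc2a2 had 2.52 with RANKL and -0.32 with CSRM617, the latter reversing to 0.18 after the correction. Fbp1 had 0.22 with RANKL and 0.01 with CSRM617, both without passing, or 0.37 and -0.18, both called, after the correction. The RANKL and RANKL II groups, which share a protocol per the labels, were scaled in separate tables and were not tested against each other. Slc2a2 averaged 40.1 CPM in RANKL and 79.4 CPM in RANKL II, Khk 32.7 CPM in RANKL and 70.2 CPM in RANKL II, and Slc2a5 9.65 CPM in RANKL and 13.5 CPM in RANKL II.

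Over the 12 libraries, centred within each table, likeness between patterns was measured as the root mean square difference of log2(CPM + 1) values among 8737 genes. The pair of members most alike was Slc5a1 and Khk, at 0.202, and the pair farthest apart was Slc2a2 and Khk, at 1.24. The nearest genes of all to Slc2a2 were Cd55 (0.103) and Zmat3 (0.104), and those to Slc5a1 were Bag1 (0.0415) and P4hb (0.0468). Khk was nearest to Dnmt1 (0.0524) and Ppp1r1b (0.0560), and Slc2a5 to Sipa1l3 (0.0850) and Bcl9l (0.0855). Fbp1 was nearest to 5031425E22Rik (0.0701) and Psmd11 (0.0705), and Slc37a4 to Bicral (0.0512) and Impdh2 (0.0558).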

How the data were processed

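RNA was measured in 12 organoid libraries. The authors deposited 2 tables of raw counts per gene symbol, and per the submitters' processing notes STAR, HTSeq 0.13.5 and DESeq2 1.34.0 were used on build mm10 (GRCm38). Strand setting, annotation and STAR version are not given in the sources. The 2 normalized tables deposited by the authors hold log2 values, which for abundant genes are log2 raw counts shifted by 1 constant in each library (SD at most 0.025), and they entered 1 alternative only. All 24 sample columns were used.

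Each comparison was fitted within its table with edgeR 4.0.16 (quasi-likelihood, robust, TMM, filterByExpr) in R 4.3.3, with no covariate. A gene was called at a Benjamini-Hochberg adjusted p under 0.05 over all genes tested. Levels are CPM after TMM scaling, SE is the size of the unshrunken log2 value divided by the root of F, and the ratio of a gene with few counts has a 95% interval, exact binomial, for counting error alone. Lengths, coordinates and GC content came from GENCODE on GRCm38, promoters from RefSeq (GRCm38.p6). Correction for GC content used per-library loess curves (span 0.3) as offsets. The fits were also run on simulated data with few changed genes, the same spread setting for every gene and no GC trend. That setting is unlike these data, so the run checks the code only.

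The members and lists were chosen with earlier results of these data known. The text names the 6 members, 11 fixed pathway genes, up to 4 called genes per list and comparison by smallest p, and the 2 genes with the pattern nearest to each member's among genes averaging at least 10 CPM in both tables. Some genes that this rule names are not reported here. The text also gives Onecut2 as the target of the compound. Alternatives were DESeq2 1.42.0, RLE factors, no filter, at least 10 CPM in 3 libraries, limma 3.58.1 on the log2 values, GC correction, a replicate block, GC correction with the block, Gm26917, Gm42418 and mitochondrial genes left out, and each library left out.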

Additional observations from a re-analysis of the deposited data

How the results depend on the processing

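Correction for GC content moved more member results than any other alternative. In RANKL against ENR control it gave 0.073 for Slc2a5 and 0.37 for Fbp1 (now called) on the log2 scale, and with the replicate block added 0.073 and 0.39 (called). In RANKL+CSRM617 against RANKL II it gave 0.18 for Slc2a2, -0.18 for Fbp1, -0.36 for Slc37a4 (called), 0.27 for Galk2 and -0.19 for Cdx2, and with the block added 0.18, -0.17, -0.36 (called), 0.26 and -0.19. There Slc37a4 was also 0.0017 by DESeq2, 0.0027 with RLE factors and 0.00093 by limma, and Fbp1 was -0.019 with at least 10 CPM in 3 libraries. The cause of these shifts was not tested. With 1 library left out, RANKL against ENR control ranged from -0.23 to 0.026 for Slc2a5, from 0.12 to 0.42 for Fbp1 and from -0.015 to 0.038 for Hnf4a, and RANKL+CSRM617 against RANKL II from -0.018 to 0.073 for Fbp1 and from -0.033 to 0.038 for Slc37a4. Calls numbered 6018 to 8328 genes and 4 to 5 members for RANKL, and 7558 to 10464 genes and 4 to 6 members for CSRM617, within 1.5 times the values reported. Slc2a2, Slc5a1, Khk and Slc37a4 with RANKL, and Slc5a1, Slc2a5 and Khk with CSRM617, kept direction and call under all 15 alternatives. To compare replicates across groups, each gene's log2(CPM + 1) values were first centred on the mean of their group. On these deviations, same-numbered replicates correlated at 0.000043 to 0.0754 in the RANKL comparison and at -0.0029 to 0.0175 in the CSRM617 comparison. With 3 libraries per group these values cannot show whether same-numbered replicates share more than a number. Not every library correlated best with its own number, and the replicate block gave 7701 calls with RANKL and 10095 with CSRM617, with no member call changed. Depth limits the low genes most, such as Pck1, Slc2a7 and Lct.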

Other observations

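Markers of other epithelial cells stood beside the sugar genes in the same libraries. Stem cell markers gave 1 rise and 2 falls of 4 with RANKL, with sums of 423 to 673 CPM in RANKL against 1524 to 1924 CPM in ENR control, and 2 rises and 1 fall with CSRM617, with sums of 101 to 103 CPM in RANKL+CSRM617 against 82.7 to 86.4 CPM in RANKL II. Paneth markers gave 1 rise and 3 falls with RANKL (302 to 319 CPM in RANKL against 223 to 371 CPM in ENR control) and 3 rises and 1 fall with CSRM617 (517 to 532 CPM in RANKL+CSRM617 against 454 to 468 CPM in RANKL II). Goblet markers summed to 274 to 357 CPM in RANKL against 214 to 298 CPM in ENR control, and to 518 to 541 CPM in RANKL+CSRM617 against 439 to 461 CPM in RANKL II. Enteroendocrine markers summed to 17.0 to 22.3 CPM in RANKL against 22.0 to 34.3 CPM in ENR control, and to 39.9 to 50.0 CPM in RANKL+CSRM617 against 16.7 to 18.2 CPM in RANKL II. Tuft markers summed to 98.4 to 131 CPM in RANKL against 78.5 to 103 CPM in ENR control. With CSRM617 they summed to 80.5 to 84.1 CPM, against 52.3 to 57.3 CPM in RANKL II. Stromal and endothelial markers summed to at most 3.20 CPM in any library, with Col1a2 at 0 throughout. Their part in the sugar gene results was not tested.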
